A study of Mus musculus with 56 samples.

Results

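The genes described here encode the constitutive proteasome, its activators, its inhibitor and its assembly factors. They were chosen by symbol, as every gene named Psma, Psmb, Psmc, Psmd, Psme, Psmf or Psmg followed by a number in all 10 deposited tables. The 3 inducible catalytic subunits Psmb8, Psmb9 and Psmb10 were left out, and each gene had to reach 50 or more normalized counts on average in every table. Of 48 matching symbols, 43 met the rule, out of 50692 symbols that the tables share. They comprised 14 core genes (Psma and Psmb), 20 cap genes (Psmc and Psmd), 4 activator genes (Psme) and 5 others (Psmf1 and Psmg1 to Psmg4). Psma8 and Psmb11 were below the minimum, with highest means of 9.07 and 3.48. The members nearest to the minimum were Psmg3, at 60.5, and Psmg1, at 74.3, both in the table of antibody-treated mice. Because the minimum used these means, the levels are given as a description and without a test.

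The proteasome is the protease that removes ubiquitin-tagged proteins from the cytosol and nucleus. Its core is a stack of rings in which alpha subunits guard the entrance and beta subunits cut the substrate. The cap binds tagged proteins, and its ATPases unfold them and feed them into the core. Activators of the Psme family can bind the same end of the core in place of the cap, and in cells exposed to interferon the inducible subunits replace the catalytic ones, which alters the peptides offered on MHC class I to CD8+ T cells.

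Bulk RNA-seq was made from cells sorted on day 14 from MC38 tumors, a colon carcinoma line, grown in the rectum of female C57BL6 mice. MC38 cells carried luciferase, and the sorted tumor cells were recognized by GFP. CAFs (cancer-associated fibroblasts) were sorted as Podoplanin+ PDGFRa+ Ly6c+ cells lacking CD45 and CD31, and CD8+ T cells by CD45 and CD8. CAFs and tumor cells each came from 5 untreated tumors and 10 tumors given short-course radiotherapy (SCRT) as 5 fractions of 5 Gy, and CD8+ T cells from 5 untreated and 10 SCRT tumors. A further 11 CD8+ T cell libraries came from mice given SCRT, 5 with IgG and 6 with the anti-IFNAR antibody per the labels. The study's text gives other numbers for these arms, which are not compared here. The labels do not mark responding and nonresponding tumors.

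The tables gave no value per library, only the authors' mean over all libraries of a fit, so every value below is 1 pooled mean with no replicate error. The 6 CAF and tumor cell tables held the same mean for every gene, as did the 3 tables of untreated and SCRT CD8+ T cells. The 43 genes were thus measured in 3 fits: CAFs with tumor cells (30 libraries), CD8+ T cells of untreated and SCRT mice (15 libraries), and CD8+ T cells of antibody-treated mice (11 libraries). CAFs and tumor cells cannot be told apart in these means, nor can untreated and treated tumors, and no effect of SCRT, of response or of anti-IFNAR is given. Means were scaled to ppm, parts in 1000000 of the summed means of each fit, because the fits were normalized separately. In the antibody-treated fit, named ribosomal RNA genes took 18.1% of the total, against 0.944% in CAFs and tumor cells and 0.238% in the other CD8+ T cell fit. Mitochondrial genes, whose ribosomal RNAs are counted in both shares, took 12.8% against 1.20% and 0.601%, and the 20 largest genes took 28.8% against 7.45% and 7.44%. The part of these shares in the values of the antibody-treated fit was not tested beyond rescaling. Over the 8898 genes with a mean of at least 50 in every fit, the median log2 ratio to CAFs and tumor cells was −0.01 in CD8+ T cells and −0.59 in the antibody-treated fit, so values of that fit are also given less this median. The 5 CD8 T cell markers (Cd8a, Cd8b1, Cd3d, Cd3e, Trac) summed to 5996 and 2261 ppm in the CD8+ T cell fits and to 1.92 in CAFs and tumor cells. The 5 CAF markers (Pdpn, Pdgfra, Ly6c1, Col1a1, Col1a2) summed to 2554 ppm in CAFs and tumor cells and to 52.4 and 171 in the CD8+ T cell fits. The 5 macrophage markers (Csf1r, Adgre1, Cd68, C1qa, Lyz2) summed to 1755 and 1799 ppm in the CD8+ T cell fits and to 80.4 in CAFs and tumor cells. B cell markers (3 genes) summed to 42.9 and 57.9 against 2.35, endothelial markers (3 genes) to 64.6 and 63.1 against 1.70, and epithelial markers (4 genes) to 47.1 and 62.2 against 81.1. Of the epithelial genes, Epcam, Krt8 and Krt18 followed the sum and Cdh1 did not, at 31.7 and 29.2 against 0.506. These marker levels differed between the CD8+ T cell fits and CAFs with tumor cells, and their part in the contrasts below was not tested.

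Upstream sequence is shown for 4 genes whose values the results turn on: the activator Psme1, the cap ATPase Psmc6, and the catalytic subunits Psmb5 and Psmb6. Each is the 250 bases before the RefSeq start in build GRCm38.p6, and capitals mark matches on either strand to any of 5 letter patterns, the antioxidant response element core TGACNNNGC, the CCAAT box, the GC box GGGCGG, the ETS site CCGGAAG and the interferon-stimulated repeat, GAAA and GAAA with 2 bases between them. The windows are chr14:55578244-55578493 (+ strand) for Psme1, chr14:45329574-45329823 (+ strand) for Psmc6, chr14:54617996-54618245 (− strand) for Psmb5 and chr11:70525107-70525356 (+ strand) for Psmb6.
Psme1: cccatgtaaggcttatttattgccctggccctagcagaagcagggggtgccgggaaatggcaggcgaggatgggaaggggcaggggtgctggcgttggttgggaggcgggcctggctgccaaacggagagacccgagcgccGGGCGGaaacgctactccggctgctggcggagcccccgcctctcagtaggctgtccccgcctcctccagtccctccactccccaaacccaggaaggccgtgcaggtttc
Psmc6: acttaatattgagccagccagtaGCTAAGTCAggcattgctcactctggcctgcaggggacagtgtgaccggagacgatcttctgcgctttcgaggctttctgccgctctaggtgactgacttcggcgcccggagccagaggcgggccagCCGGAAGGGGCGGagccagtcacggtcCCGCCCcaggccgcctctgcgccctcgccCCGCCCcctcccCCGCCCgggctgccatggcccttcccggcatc
Psmb5: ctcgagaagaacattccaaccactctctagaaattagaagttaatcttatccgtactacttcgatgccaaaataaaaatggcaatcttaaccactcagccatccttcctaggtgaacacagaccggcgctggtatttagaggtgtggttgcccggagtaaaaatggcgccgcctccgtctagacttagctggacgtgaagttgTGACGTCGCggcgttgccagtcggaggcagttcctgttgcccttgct
Psmb6: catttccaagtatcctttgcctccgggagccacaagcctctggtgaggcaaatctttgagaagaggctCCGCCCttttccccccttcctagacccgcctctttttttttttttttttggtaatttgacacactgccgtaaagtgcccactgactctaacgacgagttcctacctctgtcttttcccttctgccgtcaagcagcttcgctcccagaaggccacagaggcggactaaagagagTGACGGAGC
Psme1 held 1 GC box in this stretch, 109 bases before the start. Psmc6 held 1 antioxidant element, 1 ETS site directly followed by a GC box, and 4 GC boxes in all. Psmb5 held 1 antioxidant element, 47 bases before the start, and Psmb6 held 1 such element and 1 GC box.

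Promoters of 36 of the 43 genes were matched in the RefSeq table, each from 250 bases before to 50 after the start. Psmb1, Psmb2, Psmb7, Psmc3, Psmd3, Psmd7 and Psmg2 had no entry. A total of 12 letter patterns were counted, and the 5 described were picked after the counts had been seen. The ETS site was in 14 of the 36 promoters (38.9%), against 9.93% of 27025 genes, and the GC box in 22 (61.1%), against 38.2%. The 27025 genes are all those with a promoter entry, and unlike the members they did not have to reach a mean of 50. The interferon-stimulated repeat was in 5 (13.9%), against 3.99%, and was carried by Psmb3, Psmd4, Psmd9, Psme1 and Psmg4. In Psme1 it covers bases 10 to 19 after the start, outside the stretch shown. The antioxidant element was in 6 (16.7%), against 14.0%, namely Psmb5, Psmb6, Psmc6, Psmd9, Psmd12 and Psme4. The CCAAT box was in 12 (33.3%), against 41.1%. Of the patterns not described, a shorter ETS site, a looser antioxidant element and the NRF1 palindrome were more frequent in the members than in all genes. The STAT site, in 2 (5.56%) against 9.55%, was less frequent, as were ACTACA, the TATA box and the AP-1 site. GC and ETS letters can overlap or adjoin, and a match is a description of the letters only.

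The 43 genes took 1.21% of the total in CAFs and tumor cells, 0.835% in CD8+ T cells and 0.346% in antibody-treated CD8+ T cells. In such bulk samples, fewer cells of a type and less RNA per cell cannot be told apart. Levels of different genes were set side by side per kilobase of coding sequence. By this measure, the median core gene stood at 464 ppm per kb in CAFs and tumor cells, 333 in CD8+ T cells and 87.3 in the antibody-treated fit. The median cap gene stood at 197, 152 and 60.2 in the same order. The median activator stood at 352, 469 and 215. The core was thus above the cap in all 3 fits, by 2.36, 2.19 and 1.45 times. The activator median was 0.758 times the core median in CAFs and tumor cells and above it in both CD8+ T cell fits, by 1.41 and 2.46 times. With summed exon length in place of coding length, the order of core, cap and activators was the same in each fit, although the levels were lower. The highest and lowest genes given below are by coding length, and several differ by exon length. By exon length the highest ATPase was Psmc5 in CAFs and tumor cells and Psmc4 in CD8+ T cells. The highest beta subunit was Psmb3 in CD8+ T cells and Psmb4 in the antibody-treated fit. The lowest alpha subunit was Psma2 in CAFs and tumor cells and Psma3 in both CD8+ T cell fits. The lowest ATPase was Psmc6 in all 3 fits. Among non-ATPase cap genes, Psmd2 was the highest in CD8+ T cells and Psmd12 the lowest in both CD8+ T cell fits. The lowest cap chaperone was Psmd9 in all 3 fits, and the highest was Psmd10 in CD8+ T cells. The lowest core chaperone was Psmg3 in both CD8+ T cell fits.

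**Figure D1:**
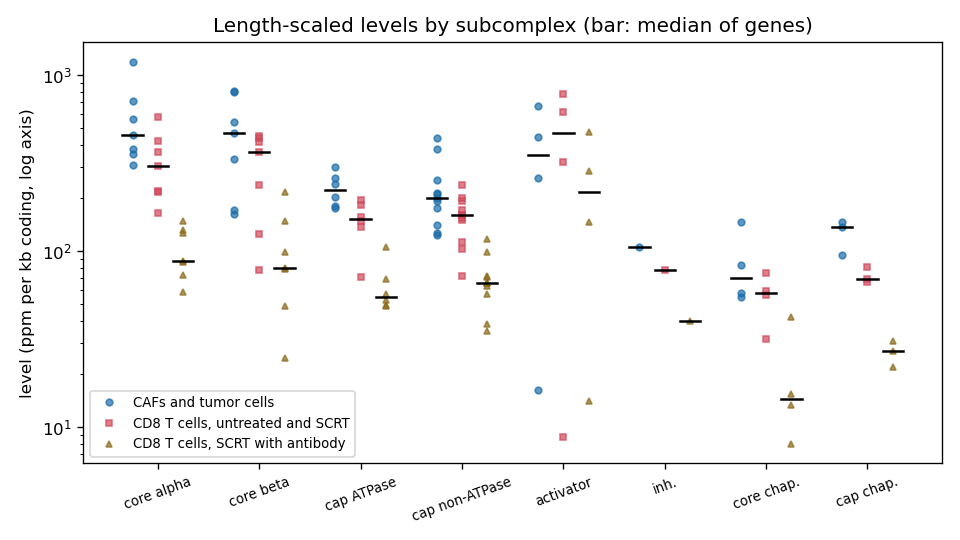
Level of each gene in ppm per kilobase of coding sequence (log axis) in 8 subcomplexes, with 1 point per gene and fit and a bar at the median of the genes. The activator medians (352, 469 and 215) sit below the core medians in CAFs and tumor cells and above them in both CD8+ T cell fits, and Psme4 is the low activator point in each.

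Within the alpha ring, Psma7 was the highest gene in all 3 fits, at 1194, 580 and 147 ppm per kb. The lowest was Psma4 in CAFs and tumor cells, at 307, and Psma5 in the CD8+ T cell fits, at 164 and 58.4. Among beta subunits the highest was Psmb6 in CAFs and tumor cells, at 817, and Psmb1, a noncatalytic subunit, in the CD8+ T cell fits, at 449 and 216. The lowest was a catalytic subunit in each fit, Psmb7 at 163 and 77.4 and, in the antibody-treated fit, Psmb5 at 24.6. The catalytic subunit Psmb6 stood in the middle of the ring in the CD8+ T cell fits, at 367 and 98.6. By exon length it stood just below the highest, at 329 and 88.2 against 351 (Psmb3) and 99.4 (Psmb4).

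Among the cap ATPases, Psmc3 was the highest in each fit, at 300.4, 195 and 105 ppm per kb, and the lowest was Psmc4 (174), Psmc6 (71.4) and Psmc5 (48.9) in turn. Among the non-ATPase cap genes the highest was Psmd7, the partner of the cap deubiquitinase, in CAFs and tumor cells at 436. It was Psmd8 in CD8+ T cells, at 237, and the ubiquitin receptor Psmd4 in the antibody-treated fit, at 117. The lowest was Psmd13 at 122 in CAFs and tumor cells and the scaffold Psmd1 at 72.2 and 35.0 in the CD8+ T cell fits. Cap chaperones, which help to build the ATPase ring, ranged from 94.8 (Psmd10) to 146 (Psmd5) in CAFs and tumor cells, from 66.9 (Psmd5) to 81.1 (Psmd9) in CD8+ T cells, and from 22.0 (Psmd10) to 30.9 (Psmd5) in the antibody-treated fit. The core chaperones Psmg1 to Psmg4 ranged from 54.8 (Psmg3) to 145 (Psmg4), from 31.6 (Psmg1) to 74.5 (Psmg4) and from 7.96 (Psmg1) to 42.2 (Psmg4). The inhibitor Psmf1 stood at 105, 77.8 and 39.9.

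**Figure D2:**
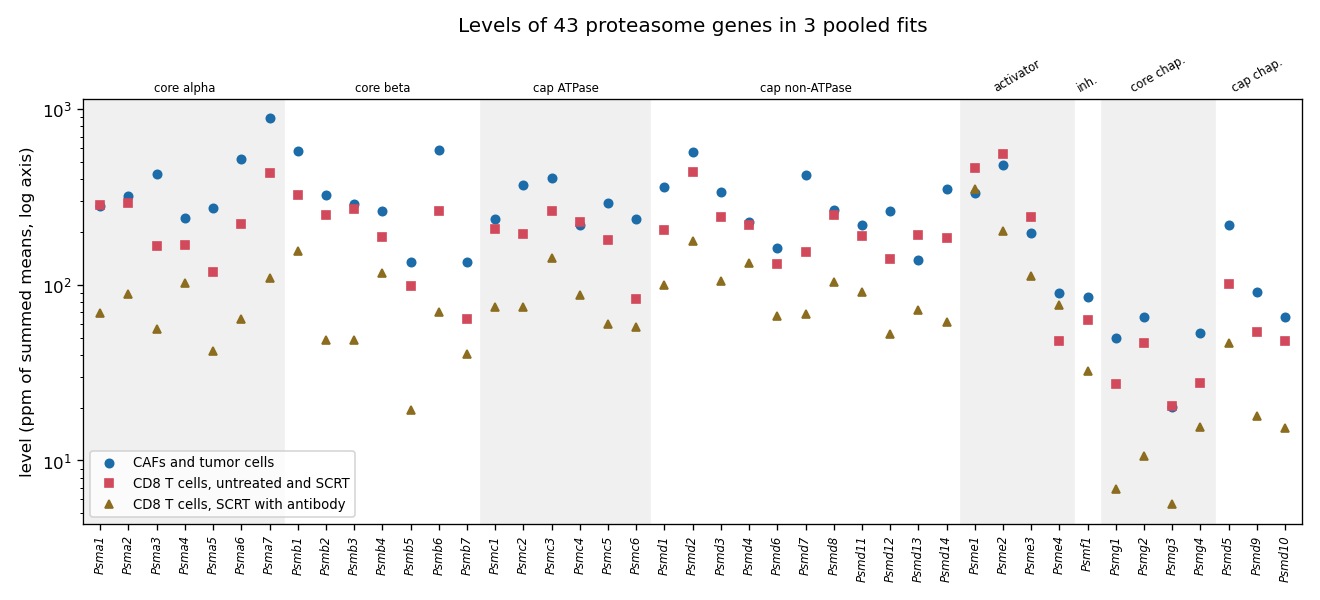
Level of each of the 43 genes in ppm of the summed means (log axis) in CAFs with tumor cells, in CD8+ T cells of untreated and SCRT mice, and in CD8+ T cells of antibody-treated mice, ordered by subcomplex, with 1 pooled mean per point. Antibody-treated values lie below both other fits for all genes except Psme1 (332, 461 and 354) and Psme4 (89.7, 48.0 and 77.1), where they lie between them. Heights of different genes are not scaled by length.

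The levels of each gene were then compared between CD8+ T cells and CAFs with tumor cells, a ratio in which gene length cancels. The core genes had a median log2 ratio of −0.67 and the cap genes of −0.55, beside −0.01 over all genes. The middle 50% of all genes ran from −0.67 to 0.61, with the core median at its lower edge and the cap median inside it. The 4 activators had a median of 0.26, which is 0.93 above the core and 0.81 above the cap, with Psme1, Psme2 and Psme3 above 0 and Psme4 at −0.90. These differences between subcomplexes do not depend on how the fits are scaled. Of the 43 genes, 9 were at least 2-fold lower in CD8+ T cells, beside 16.5% of all 8898 genes, a share close to that of the members. They were 6 of 14 core genes, 3 of 20 cap genes and none of the 4 activators. None of the 43 was 2-fold higher, beside 15.5% of all genes.

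The 5 lowest ratios belonged to Psmc6, Psmd7, Psma3, Psma6 and Psma5. Psmc6, an ATPase of the cap, stood at 237 ppm in CAFs and tumor cells and 83.3 in CD8+ T cells, a log2 ratio of −1.51. Psmd7 stood at 420.3 and 154, a log2 ratio of −1.45. The alpha subunits Psma3, Psma6 and Psma5 had log2 ratios of −1.36, −1.22 and −1.22. Not every alpha subunit was lower, as Psma1 stood at 282 and 286 ppm, with a log2 ratio of 0.02. The alpha median of −1.04 lay below the beta median of −0.49, the ATPase median of −0.67 and the non-ATPase cap median of −0.39. The cap and core chaperones had medians of −0.76 and −0.68. The assembly factors Psmg1 to Psmg4 had log2 ratios of −0.87, −0.49, 0.03 and −0.96, and the inhibitor Psmf1 of −0.43.

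The 5 highest ratios belonged to Psmd13, Psme1, Psme3, Psme2 and Psmc4. Psmd13, a subunit of the cap lid, stood at 138 ppm in CAFs and tumor cells and 192 in CD8+ T cells, a log2 ratio of 0.47. Psme1, which forms a ring with Psme2, stood at 332 and 461, also a log2 ratio of 0.47. Psme2 stood at 480 and 558 (log2 ratio 0.22), and Psme3, the nuclear activator, at 197 and 245 (log2 ratio 0.31). Psmc4 had a log2 ratio of 0.07. Psme4, the large activator of a different fold, went the other way, from 89.7 to 48.0 ppm, a log2 ratio of −0.90. The 3 small activators were thus each higher in CD8+ T cells and the large one was lower. All 3 small ones lay inside the middle 50% of all genes (−0.67 to 0.61), and Psme4 lay below it.

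**Figure D3:**
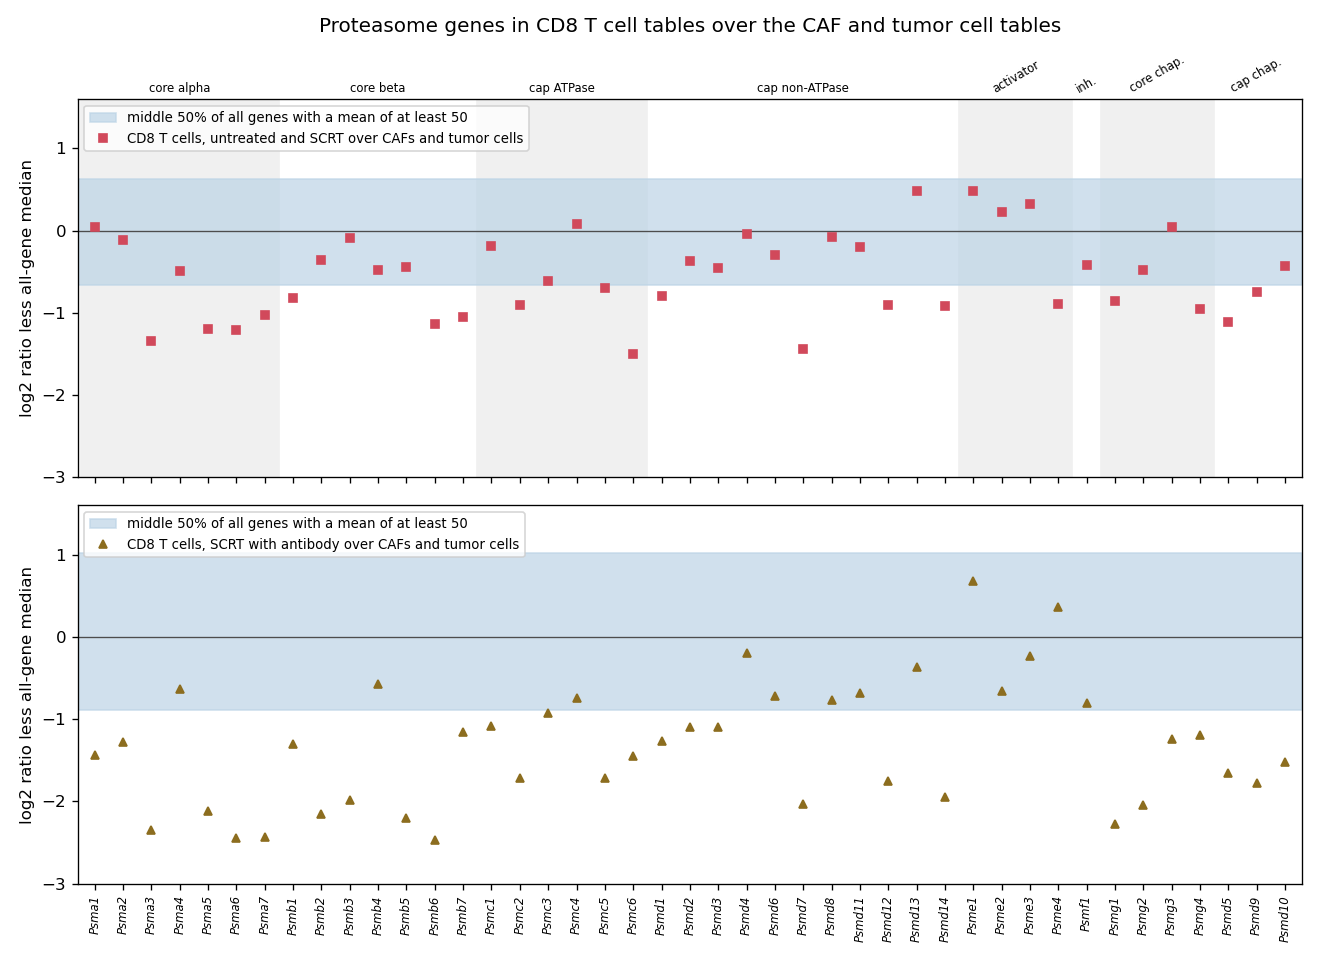
Log2 ratio of each gene in CD8+ T cells over CAFs with tumor cells, less the median over all genes, for untreated and SCRT mice (upper panel) and antibody-treated mice (lower panel), with the middle 50% of all 8898 genes shaded. Psme1, Psme2 and Psme3 lie above 0 in the upper panel, where Psmc6 and Psmd7 are lowest, and in the lower panel only Psme1 and Psme4 lie above 0.

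The antibody-treated CD8+ T cells share the same CAF and tumor cell denominator, and their values are set beside the others for that reason without a measure of agreement. The core median was −2.64, the cap median −1.77 and the activator median −0.52. Less the median over all genes, these were −2.05, −1.18 and 0.07. The activators stood 2.12 above the core and 1.25 above the cap. Before the median is taken off, the middle 50% of all genes ran from −1.48 to 0.44. All 4 activators lay inside it, and the core and cap medians lay below it. On the ppm scale, 38 of the 43 genes were at least 2-fold lower, beside 38.0% of all genes, and they were all 14 core genes, 18 of 20 cap genes, 1 of 4 activators and all 5 others. None was 2-fold higher, beside 16.6% of all genes. With fits matched on the median over all genes, 29 were 2-fold lower, beside 22.4% of all genes, and they were 12 core genes, 13 cap genes, no activator and 4 others.

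The lowest in this fit were Psmb6, Psma6, Psma7, Psma3 and Psmg1. The catalytic subunit Psmb6 lay furthest below the CAF and tumor cell level, at 70.4 ppm against 583, a log2 ratio of −3.05. The log2 ratios were −3.03 for Psma6, −3.02 for Psma7, −2.94 for Psma3 and −2.86 for Psmg1, a chaperone that pairs with Psmg2 to build the alpha ring. The other assembly factors had log2 ratios of −2.64 (Psmg2), −1.83 (Psmg3) and −1.78 (Psmg4), and Psmf1 of −1.39. The subcomplex medians were −2.70 for alpha, −2.57 for beta, −1.85 for ATPases, −1.69 for non-ATPase cap genes, −2.24 for cap chaperones and −2.23 for core chaperones.

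The highest were Psme1, Psme4, Psmd4, Psme3 and Psmd13. Psme1 stood at 354 ppm against 332 in CAFs and tumor cells, a log2 ratio of 0.09. Psme4 stood at 77.1 against 89.7, a log2 ratio of −0.22, and Psme3 at 112 against 197, a log2 ratio of −0.82. Psmd4 and Psmd13 had log2 ratios of −0.78 and −0.95. Psme2, the ring partner of Psme1, stood at 203 against 480, a log2 ratio of −1.24. Psme4 ranked 30 of the 43 ratios in the first CD8+ T cell fit and 2 in the antibody-treated fit, and Psme2 ranked 4 and 8.

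The distance between the 2 CD8+ T cell fits is the only guide to the spread of such pooled means. The antibody-treated fit over the other CD8+ T cell fit had a median log2 ratio of −1.77 for the core, −1.28 for the cap and −0.75 for the activators, beside −0.56 over all genes. For the core this distance was larger than the ratio of the first CD8+ T cell fit to CAFs and tumor cells, −0.67. It was smaller than that of the antibody-treated fit, −2.64. The cap distance likewise lay between −0.55 and −1.77, and the activator distance exceeded both 0.26 and −0.52 in size. A difference of the size seen between cell types in the first CD8+ T cell fit was therefore also seen between fits of the same sorted cell type. Marker sums differed between these fits too, at 5996 and 2261 ppm for CD8 T cell markers and 52.4 and 171 for CAF markers. Macrophage markers stood at 1755 and 1799 ppm, a near-equal sum of genes that moved in both directions. Csf1r (164 and 311), C1qa and Adgre1 were higher in the antibody-treated fit, and Lyz2 (1328 and 1125) and Cd68 were lower. Treatment, antibody, the share of ribosomal RNA and the mix of sorted cells cannot be told apart in the distance between the fits.

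The catalytic subunits were set beside the inducible subunits that replace them, per kilobase of coding sequence within each fit. Psmb8 over Psmb5, the chymotrypsin-like pair, was 3.35 in CAFs and tumor cells, 5.42 in CD8+ T cells and 14.9 in the antibody-treated fit. Psmb9 over Psmb6, the caspase-like pair, was 0.384, 1.71 and 1.59. Psmb10 over Psmb7, the trypsin-like pair, was 2.45, 5.28 and 2.70. The inducible gene was the higher of each pair except for Psmb9 in CAFs and tumor cells. Each ratio was higher in both CD8+ T cell fits than in CAFs and tumor cells. In ppm, Psmb8 stood at 473, 557 and 303 in the same order. Psmb9 stood at 206, 413 and 103, and Psmb10 at 327, 335 and 108. In the antibody-treated fit each inducible gene was thus below its CAF and tumor cell level, and its constitutive partner lay further below its own. Less the median over all genes, the log2 ratios to CAFs and tumor cells in that fit were −0.06 (Psmb8), −0.41 (Psmb9) and −1.01 (Psmb10). The log2 shift from CAFs and tumor cells was 0.69 and 2.15 for Psmb8 over Psmb5, 2.16 and 2.05 for Psmb9 over Psmb6, and 1.11 and 0.14 for Psmb10 over Psmb7, in CD8+ T cells and the antibody-treated fit. The shift of Psmb9 over Psmb6 was near the same in both fits, whereas those of the other pairs differed between them.

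**Figure D4:**
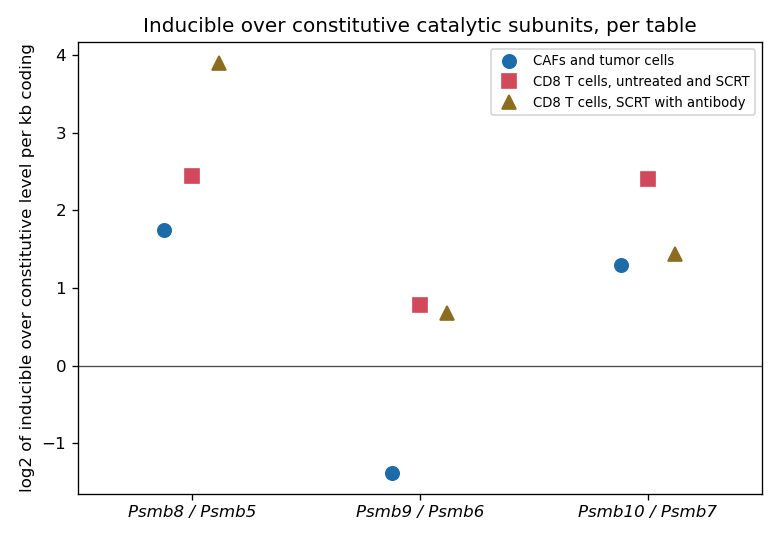
Log2 ratio of each inducible catalytic subunit to the constitutive subunit it replaces, per kilobase of coding sequence, in the 3 fits, with 1 pooled value per point. Psmb9 over Psmb6 lies below 0 in CAFs with tumor cells and above 0 in both CD8+ T cell fits, and Psmb8 over Psmb5 is highest in the antibody-treated fit.

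Among the activators, Psme1 over Psme2 per kilobase was 0.665 in CAFs and tumor cells, 0.793 in CD8+ T cells and 1.67 in the antibody-treated fit. Psme2 was thus the higher activator in the first 2 fits, at 669 and 778 ppm per kb, and Psme1 in the antibody-treated fit, at 474. Psme4 was the lowest activator in each fit, at 16.2, 8.68 and 13.9 ppm per kb. Psme1 over the alpha subunit Psma6 was 0.628, 2.03 and 5.46 in the same order. Psme2b, a near-identical copy of Psme2 that is listed apart, reached 2.16%, 2.14% and 3.36% of the Psme2 mean, and reads could have been split between them.

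Other genes that work with the proteasome were read from a list of 21, of which 20 were in the tables and 19 had a mean of at least 50 in every fit. Paaf1 was not analysed here. In CD8+ T cells over CAFs and tumor cells their median log2 ratio was −0.48, beside −0.49 for the 43 members, and 3 genes were 2-fold lower and none higher, beside 16.5% and 15.5% of all genes. In the antibody-treated fit the median was −0.97, beside −1.86 for the members and −0.59 over all genes, and 9 were lower and 2 higher, beside 38.0% and 16.6% of all genes. The core maturation factor Pomp had log2 ratios of −0.72 and −2.39, close to the core medians, and the cap-bound deubiquitinase Usp14 of −0.86 and −2.57. The ubiquitin receptor Adrm1 had −0.48 and −1.45, and the segregase Vcp −0.44 and −0.87. Nfe2l1, the factor that raises proteasome genes when the protease is inhibited, had −1.03 and −0.97, and Ddi2, the protease that activates it, had 0.74 and 1.61. Ubqln2, a shuttle for ubiquitinated proteins, had −0.51 and 1.88, so it was among the 2 genes that were 2-fold higher in the antibody-treated fit.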

How the data were processed

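RNA-seq libraries of sorted CAFs, tumor cells and CD8+ T cells (56 samples) were grouped by their labels. The submitters' processing notes name fastp 0.20.1, STAR 2.7.6a, DESeq2 1.28.1, R 4.0.2 and build mm39, and the counting tool and annotation are not given in the sources used here. The authors deposited 10 tables of DESeq2 comparisons, and the mean normalized count in them is a signal that the authors computed from read counts divided by size factors, as 1 mean per gene and fit. The other deposited columns hold the authors' log2 fold changes, Wald statistics, p-values and adjusted p-values, and were not used. Library depth is unknown, and no interval or p-value could be given.

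Members and lists were chosen with earlier results of these data known. Means were scaled to ppm of the summed means of each fit, and log2 ratios between fits were taken with no pseudocount (Python 3.11.15, numpy 2.4.6, pandas 2.3.3, matplotlib 3.10.9). The ratio step was run on simulated data with known ratios. Where a dominant RNA was added to a fit, ppm scaling gave ratios below the true ones, and scaling by the median ratio over all genes recovered them. Ratios of a fit without such an RNA were recovered in ppm. Coding and exon lengths came from the GENCODE annotation of GRCm38, used for lengths only, and all 43 members matched. Promoters came from RefSeq on GRCm38.p6. Genes 2-fold apart were counted beside the same share of the 8898 genes with a mean of at least 50 in every fit. Named genes were the catalytic subunits and their inducible counterparts, the Psme, Psmf and Psmg genes, the 5 highest and 5 lowest ratios in each CD8+ T cell fit, and the highest and lowest gene of each subcomplex per length. Psma1, the ratio of Psme1 to Psma6 and the 7 pathway genes given with values were picked after their values had been seen. Alternatives were another minimum mean, 3 other scalings, a fold of 1.5 and exon length.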

Additional observations from a re-analysis of the deposited data

How the results depend on the processing

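No paired analysis was possible because the tables hold no value per sample, and for the same reason no replicate could be left out. A minimum mean of 10 or 100 gave 43 and 41 members. The activator less core difference is the same under every scaling. Relative to the members' own median, the CD8+ T cell medians were −0.20 (core), −0.076 (cap) and 0.74 (activators), and 1 gene was 2-fold lower; at a fold of 1.5, 20 were lower. For the antibody-treated fit, the core median was −2.26 without mitochondrial genes and the 20 largest genes, −2.05 by the median ratio over all genes and −0.71 relative to the members. The cap median was −1.39, −1.18 and 0.16, the last reversed in sign, and the activator median −0.14, 0.069 and 1.41. Relative to the members, 4 genes were 2-fold lower, and the ratios of Psmb7 (0.19), Psmc4 (0.60), Psme2 (0.69), Psmf1 (0.54), Psmg3 (0.10) and Psmg4 (0.15) turned positive. They are among 22 of the 43 that did. This scaling divided each fit by the median level of the members, whose median ratio was −1.86 in ppm, so many were bound to turn. The highest of the 22 were Psme4 (1.71), Psmd4 (1.15) and Psme3 (1.11), now past 2-fold. Psme4 also turned positive without the largest genes (0.16) and by the median ratio (0.37). In CD8+ T cells 13 of the 43 turned positive relative to the members, the highest being Psmd4 (0.41), and none under the other scalings. With exon length, the medians ppm per kb were 222 (core), 123 (cap) and 186 (activators) in CAFs and tumor cells, 152 (core) and 253 (activators) in CD8+ T cells, and 55.8 (core) and 125 (activators) in the antibody-treated fit. In all, 21 values or counts of groups moved by less than 0.1 on the log2 scale or 1.5 times. They include the member counts and the activator less core differences given above, and no scaling of a whole fit can change those differences. Single-gene ratios under the other scalings were checked for named genes, with a value per gene, fit and scaling. Of these values, 42 moved by less than 0.1, all in CD8+ T cells of untreated and SCRT mice. All the others, including every value of the antibody-treated fit, moved by more. Depth and replicate spread are unknown, so no difference here could be set against replicate error.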
